A study of Mus musculus with 17 samples.

Results

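The genes *Nes*, *Sox1*, *Sox3*, *Sox11*, *Sox4*, *Pax6*, *Tubb3*, *Ncam1* and *Zic1*, which are widely used to mark neural progenitors and early neurons, were followed by symbol and make up 9 of the 54532 genes listed. RNA sequencing was carried out on R1 cells, a mouse embryonic stem cell line, that were wild-type or carried a CRISPR/Cas9 knockout of *Usb1*, which encodes the exonuclease that trims the 3′ end of U6 snRNA. Cells of both genotypes were collected at day 0, 1 and 3 of differentiation with retinoic acid (RA), so the 17 libraries fall into 6 groups. Wild-type cells at day 0 had 2 libraries and each of the other groups had 3, described by the study as biological replicates. The day 0 cells were in self-renewal culture without RA. According to the study, the knockout libraries came from a single line, KO-1, so an effect of the knockout and one of the clone cannot be told apart. The comparisons ask how these genes respond to RA in wild-type cells and whether the response differs without *Usb1*. Whole cultures were sequenced, so fewer cells of a type and less RNA per cell cannot be told apart.

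The SOXB1 transcription factors SOX1, SOX2 and SOX3 keep neural progenitors undifferentiated. SOX2 is already present in pluripotent cells, whereas SOX1 marks the early neuroectoderm. PAX6 and ZIC1 pattern these progenitors, and Nestin, the product of *Nes*, is their intermediate filament. SOX4 and SOX11, of the SOXC group, act later, when progenitors commit to neurons, and neurons carry class III β-tubulin (*Tubb3*) and the adhesion molecule NCAM1. Several of these genes have other sites of expression: Nestin and the SOXC factors are also made in mesodermal and other embryonic cells, and RA can lead embryonic stem cells to neural, mesodermal or primitive endoderm-like fates depending on the culture.

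Expression is given in TPM, a level corrected for gene length and library total, so that levels can be compared between genes. From 15404379 to 17300186 reads on genes stood behind each library, and 1 library stood apart. Wild-type replicate 1 at day 0 had 17090 genes above 0 and 239 genes with a single read, against medians of 24054 and 2336 over the 17 libraries. For several results of the 9 genes that rest on it, the value without it is also given. Results of the other gene lists are given with all libraries only. *Usb1* RNA, which checks the labels, was at 14.7 to 21.4 TPM in the *Usb1* knockout libraries and 32.0 to 56.9 TPM in the wild-type libraries, with no overlap. The knockout lesion leaves a transcript, so this level is a check of the labels and not of the protein. In the following, a gene rose or fell if limma gave an adjusted p under 0.05 over the 21871 genes tested and a change of at least 2-fold on the log2(TPM + 1) scale. *Zic1* did not reach 1 TPM in 2 libraries and was not tested, so 8 of the 9 genes were.

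The 9 genes did not move as 1 group. *Sox4*, *Sox11* and *Nes* rose by day 3 in both genotypes, *Sox1* and *Tubb3* fell in both, and *Pax6* and *Zic1* stayed at or below 2.18 TPM in all 17 libraries. *Sox3* was lower in *Usb1* knockout cells at day 0 and day 1. At day 3 the name neural progenitor markers thus fitted the known roles of the 9 genes and not a shared direction, since *Sox1* and *Pax6* were low while *Nes* and the SOXC genes were high. *Sox3*, the other SOXB1 gene of the 9, was at 18.5 to 20.4 TPM in wild-type and 8.24 to 11.1 TPM in knockout cells on that day.

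**Figure D1:**
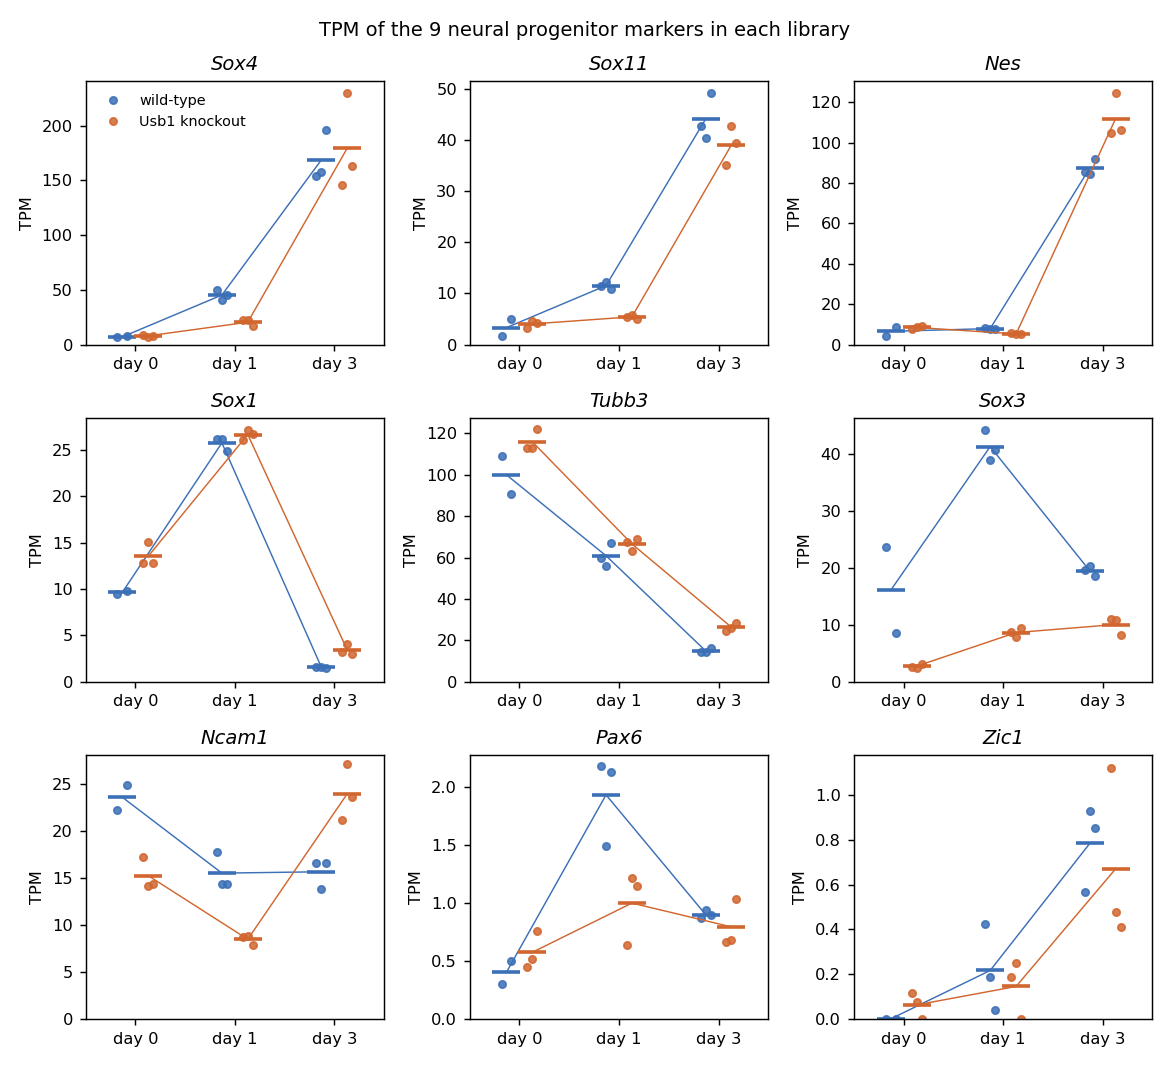
TPM (y axis, from 0) of each of the 9 genes in wild-type (blue) and *Usb1* knockout (orange) cells at day 0, 1 and 3 of RA treatment (x axis), where points are libraries, bars are group means and lines join them. *Sox4*, *Sox11* and *Nes* climb to day 3, *Sox1* peaks at day 1, *Tubb3* declines throughout, and *Sox3* is lower in the knockout.

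*Sox4*, *Sox11* and *Nes* rose from day 0 to day 3 in both genotypes. Their RefSeq promoter windows (250 bases before to 50 after the start site, GRCm38.p6, 5′ to 3′ on the strand of the gene) are shown because the 3 genes reached their highest level together at day 3. Capitals mark matches on either strand to the CCAAT box (CCAAT), the TATA box (TATAA) or the half-site bound by nuclear receptors such as those for RA (AGGTCA). The *Sox4* window is chr13:28953650-28953949 on the minus strand, the *Sox11* window is chr12:27342669-27342968 on the minus strand, and the *Nes* window is chr3:87970843-87971142 on the plus strand.
Sox4: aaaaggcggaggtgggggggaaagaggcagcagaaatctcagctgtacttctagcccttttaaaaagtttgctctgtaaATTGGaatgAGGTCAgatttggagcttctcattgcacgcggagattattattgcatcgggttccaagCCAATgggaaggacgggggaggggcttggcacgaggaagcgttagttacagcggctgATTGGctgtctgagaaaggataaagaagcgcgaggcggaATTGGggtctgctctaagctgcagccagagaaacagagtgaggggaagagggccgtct
Sox11: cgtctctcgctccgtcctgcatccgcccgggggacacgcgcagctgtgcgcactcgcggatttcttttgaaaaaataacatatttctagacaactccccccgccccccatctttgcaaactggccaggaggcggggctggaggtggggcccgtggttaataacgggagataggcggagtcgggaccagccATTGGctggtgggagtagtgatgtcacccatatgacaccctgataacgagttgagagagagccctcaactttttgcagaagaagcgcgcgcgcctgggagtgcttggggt
Nes: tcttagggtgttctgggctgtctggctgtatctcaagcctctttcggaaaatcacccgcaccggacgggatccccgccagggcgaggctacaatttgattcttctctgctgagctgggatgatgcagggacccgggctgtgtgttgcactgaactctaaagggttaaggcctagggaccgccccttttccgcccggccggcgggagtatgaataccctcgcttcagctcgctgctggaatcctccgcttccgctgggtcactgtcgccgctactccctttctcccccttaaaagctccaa
The *Sox4* window holds 4 CCAAT matches and 1 half-site, the *Sox11* window holds 1 CCAAT match, and the *Nes* window holds none of these motifs. CCAAT was found in 37.4% of the 32851 promoter windows, TATAA in 24.9% and AGGTCA in 16.3%. A SOX motif (AACAAT, 10.7% of windows) and a direct repeat of the half-site with 5 bases between (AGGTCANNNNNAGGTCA, which contains AGGTCA, in 3 windows) were also searched on both strands and had no match in the windows of the 9 genes. Windows were found for 7 of the 9 genes.

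*Sox4* (ENSMUSG00000076431, chr13:28948919-28953713, minus strand, GRCm38) encodes a SOXC transcription factor and showed the steepest rise of the 9 genes. In wild-type cells it was at 6.55 and 7.63 TPM at day 0, 50.3, 40.5 and 45.1 TPM at day 1, then 154, 157 and 196 TPM at day 3. The 3 days did not overlap, and each step was several times the spread between libraries. In *Usb1* knockout cells *Sox4* was at 8.99, 7.42 and 7.70 TPM at day 0, 22.1, 22.1 and 17.3 TPM at day 1, then 146, 229.7 and 163 TPM at day 3. The genotypes overlapped at day 0 and at day 3 but were separate at day 1, where every knockout library was below every wild-type library. From day 0 to day 3 *Sox4* rose by 4.39 ± 0.18 (log2 fold change ± SE) in wild-type cells (adjusted p = 4.07e-11) and by 4.30 ± 0.16 in *Usb1* knockout cells (adjusted p = 1.25e-11). In TPM these are 23.8-fold and 22.4-fold differences between group means.

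*Sox11* (ENSMUSG00000063632, chr12:27334264-27342574, minus strand), the other SOXC gene followed here, had the same order of days at lower levels. Wild-type cells held 1.71 and 4.94 TPM at day 0, 11.4, 12.3 and 10.9 TPM at day 1, and 42.6, 40.4 and 49.1 TPM at day 3. The lowest day 0 value came from replicate 1, the library with few low-count genes. *Usb1* knockout cells held 3.31, 4.56 and 4.28 TPM at day 0, 5.41, 5.88 and 5.01 TPM at day 1, and 35.1, 42.6 and 39.4 TPM at day 3. At day 1 the wild-type libraries were far above day 0, whereas the knockout libraries were only just above it. The rise from day 0 to day 3 was 3.48 ± 0.23 in wild-type cells (adjusted p = 1.08e-08), or 2.92 without wild-type replicate 1, and 2.99 ± 0.21 in knockout cells (adjusted p = 1.54e-08). Both SOXC genes consist of a single exonic stretch in the annotation, as do *Sox1* and *Sox3*.

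*Nes* (ENSMUSG00000004891, chr3:87971078-87980451, plus strand) rose after day 1. In wild-type cells it was at 4.50 and 8.66 TPM at day 0, 8.15, 7.71 and 7.96 TPM at day 1, and 85.6, 84.5 and 91.9 TPM at day 3. In *Usb1* knockout cells it was at 7.70, 8.55 and 9.27 TPM at day 0, 5.59, 5.09 and 5.17 TPM at day 1, and 105, 124 and 106 TPM at day 3. In wild-type cells days 0 and 1 overlapped, whereas the knockout libraries were lower at day 1 than at day 0 by less than 2-fold (-0.59 ± 0.15, adjusted p = 0.00839). The knockout libraries lay below the wild-type libraries at day 1 and above them at day 3. From day 1 to day 3 *Nes* rose by 3.30 ± 0.15 in wild-type cells (adjusted p = 2.95e-10) and by 4.16 ± 0.15 in knockout cells (adjusted p = 2.36e-11). The group means differed 11.0-fold and 21.2-fold between these days.

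*Sox1* and *Tubb3*, the markers of early neuroectoderm and of neurons, were lower at day 3 than at day 0. Their promoter windows are shown for comparison with the genes that rose, with the same marks, at chr8:12395269-12395568 for *Sox1* and chr8:123411303-123411602 for *Tubb3*, both on the plus strand.
Sox1: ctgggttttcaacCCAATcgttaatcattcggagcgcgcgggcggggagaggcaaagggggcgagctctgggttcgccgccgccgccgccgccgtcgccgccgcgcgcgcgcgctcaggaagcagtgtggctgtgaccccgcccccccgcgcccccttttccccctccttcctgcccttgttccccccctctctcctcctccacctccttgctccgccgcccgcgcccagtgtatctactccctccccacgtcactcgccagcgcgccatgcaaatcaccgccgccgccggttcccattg
Tubb3: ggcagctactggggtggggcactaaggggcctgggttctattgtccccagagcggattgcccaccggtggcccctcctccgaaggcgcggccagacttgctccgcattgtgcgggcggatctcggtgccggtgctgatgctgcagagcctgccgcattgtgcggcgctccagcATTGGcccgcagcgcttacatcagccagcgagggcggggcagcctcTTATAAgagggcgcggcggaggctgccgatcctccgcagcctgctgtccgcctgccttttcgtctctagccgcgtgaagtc
Each window holds 1 CCAAT match, and the *Tubb3* window also holds 2 TATAA matches, on opposite strands and overlapping each other. The CCAAT box thus occurs in windows of genes that rose and of genes that fell.

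*Sox1* (ENSMUSG00000096014, chr8:12395295-12400126, plus strand) peaked at day 1. Wild-type cells held 9.49 and 9.81 TPM at day 0, 26.2, 26.1 and 24.9 TPM at day 1, and 1.61, 1.62 and 1.44 TPM at day 3. In *Usb1* knockout cells the values were 12.8, 15.0 and 12.8 TPM at day 0, 26.1, 27.1 and 26.8 TPM at day 1, and 3.17, 4.10 and 2.99 TPM at day 3. Days did not overlap in either genotype, and the genotypes overlapped only at day 1. *Sox1* fell by 3.39 on the log2 scale from day 1 to day 3 in wild-type cells (SE 0.10, adjusted p = 4.47e-12) and fell by 2.65 in knockout cells (SE 0.10, adjusted p = 5.42e-11). The fall was 16.6-fold in wild-type and 7.80-fold in knockout TPM.

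*Tubb3* (ENSMUSG00000062380, chr8:123411424-123422015, plus strand) was highest in undifferentiated cells. Wild-type values were 109 and 90.9 TPM at day 0, 59.5, 56.0 and 67.0 TPM at day 1, and 14.6, 14.1 and 16.1 TPM at day 3. *Usb1* knockout values were 113, 113 and 122 TPM at day 0, 67.4, 63.4 and 68.8 TPM at day 1, and 24.7, 26.1 and 28.2 TPM at day 3. The knockout libraries lay just above the wild-type libraries at day 0, overlapped them at day 1 and stood clear of them at day 3, by 1.76-fold in mean TPM. From day 0 to day 3 *Tubb3* fell by 2.66 in wild-type cells (SE 0.09, adjusted p = 1.23e-11) and fell by 2.10 in knockout cells (SE 0.08, adjusted p = 3.59e-11).

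*Sox3* (ENSMUSG00000045179, chrX:60891366-60893430, minus strand), a SOXB1 gene, was the member with the largest difference between genotypes. Wild-type cells held 23.6 and 8.53 TPM at day 0, 44.3, 39.0 and 40.8 TPM at day 1, and 19.7, 20.4 and 18.5 TPM at day 3. *Usb1* knockout cells held 2.62, 2.43 and 3.15 TPM at day 0, 8.73, 7.85 and 9.39 TPM at day 1, and 11.1, 10.9 and 8.24 TPM at day 3. Every knockout library was below every wild-type library of its day. The wild-type level went up at day 1 and came back, whereas the knockout level went up at day 1 and remained there, and the knockout values at day 1 and day 3 overlapped. The 2 wild-type libraries at day 0 differed widely (233 and 78 reads), and 24 to 30 reads stood behind the knockout values of that day.

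*Ncam1* (ENSMUSG00000039542, chr9:49502136-49798925, minus strand) is an adhesion molecule of neural cells that is also found elsewhere in the embryo. In wild-type cells it was at 22.3 and 24.9 TPM at day 0, 17.8, 14.4 and 14.4 TPM at day 1, and 16.6, 13.8 and 16.6 TPM at day 3. In *Usb1* knockout cells it was at 17.2, 14.2 and 14.4 TPM at day 0, 8.76, 8.80 and 7.89 TPM at day 1, and 21.2, 27.1 and 23.7 TPM at day 3. Knockout libraries were below the wild-type libraries at day 0 and day 1 and above them at day 3. Between day 1 and day 3, *Ncam1* rose in knockout cells by 1.39 ± 0.12 (adjusted p = 2.07e-07), and the change in wild-type cells was 0.01 ± 0.12 (adjusted p = 0.951).

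*Pax6* (ENSMUSG00000027168, chr2:105668900-105697364, plus strand) and *Zic1* (ENSMUSG00000032368, chr9:91358058-91365810, minus strand), transcription factors of the neural plate and tube, were at low levels, *Zic1* close to the limit of detection. *Pax6* was at 0.304 and 0.502 TPM in wild-type cells at day 0, 2.18, 1.49 and 2.13 TPM at day 1, then 0.869, 0.940 and 0.893 TPM at day 3, with 17 to 116 reads. In *Usb1* knockout cells it was at 0.445, 0.519 and 0.761 TPM at day 0, 0.635, 1.21 and 1.15 TPM at day 1, then 0.662, 0.681 and 1.04 TPM at day 3. The wild-type libraries at day 1 were above all the others, and the knockout days overlapped. *Zic1* had 0 reads in both wild-type libraries at day 0 and 3, 2 and 0 reads in the knockout libraries, where 3 reads, the limit that a count of 0 allows, correspond to 0.110 to 0.119 TPM (counting error only). At day 1 it had 11, 5 and 1 reads in wild-type cells and 5, 7 and 0 in knockout cells. At day 3 the wild-type libraries had 15, 25 and 21 reads and the knockout libraries 33, 12 and 11, which is 0.411 to 1.12 TPM over both genotypes. *Zic1* was thus above its day 0 level in all 6 libraries at day 3 and overlapped between genotypes. The NEBNext Ultra kit named in the labels does not mark strand, so reads of overlapping genes cannot be told apart. The genes that overlap the 9 in the annotation (*Sox1ot*, *Pax6os1*, *Gm11149*, *Gm26735*, *Zic4*, *Gm20388* and *Gm25239*) reached at most 0.700 TPM in any library.

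In wild-type cells 5 of the 8 tested genes rose in the first day of RA treatment. These were *Sox4* (2.52 ± 0.18, adjusted p = 6.74e-08), *Sox11* (1.64 ± 0.23, 7.23e-05), *Sox3* (1.47 ± 0.27, 6.27e-04), *Sox1* (1.33 ± 0.12, 7.29e-07) and *Pax6* (1.06 ± 0.21, 0.00101), and none fell. Over all genes tested, 9.99% rose and 3.88% fell, and the median of all genes was 0.17. The calls for *Sox11*, *Sox3* and *Pax6* were lost under 1, 2 and 4 of their alternatives. With the libraries of this comparison alone, *Sox11* had an adjusted p of 0.0507 and *Sox3* of 0.0864, the highest over their alternatives (lowest 3.13e-07 and 6.03e-07). Without wild-type replicate 1 at day 0 *Sox11* changed by 1.07, *Sox3* by 2.15 and *Pax6* by 0.96, and without replicate 2 *Sox3* changed by 0.78. *Pax6* changed by 0.41 after quantile normalization (adjusted p = 0.191) and by 2.27 with voom on the recovered reads (adjusted p = 1.49e-04), the extremes over its alternatives. Its group means were 0.403 TPM at day 0 and 1.93 TPM at day 1, a 4.79-fold difference.

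By day 3 in wild-type cells, *Sox4*, *Nes* and *Sox11* had risen and *Sox1* and *Tubb3* had fallen relative to day 0, which is 3 genes up and 2 down where 16.1% of all genes rose and 9.68% fell. *Nes* changed by 3.60 ± 0.17 (adjusted p = 2.22e-10) and *Sox1* by -2.06 ± 0.12 (adjusted p = 1.66e-09). Without wild-type replicate 1 at day 0, *Nes* changed by 3.19, *Sox4* by 4.29, *Sox1* by -2.08 and *Tubb3* by -2.53. *Sox3*, at 0.42 ± 0.27, did not pass the test with all libraries (adjusted p = 0.213) and was at 1.11 without wild-type replicate 1 at day 0, with adjusted p from 7.89e-05 to 0.570 over its alternatives. *Ncam1* was at -0.56 ± 0.13 (adjusted p = 0.00221), under the 2-fold limit. From day 1 to day 3, *Nes*, *Sox4* (1.87 ± 0.16, adjusted p = 1.83e-07) and *Sox11* (1.84 ± 0.21, 4.33e-06) rose, and *Sox1*, *Tubb3* (-1.95 ± 0.08, 1.58e-10) and *Sox3* (-1.04 ± 0.24, 0.00251) fell. Without wild-type replicate 1 at day 1, *Sox3* was at -0.996, just under the 2-fold limit. Thus 3 genes went each way, beside 7.7% of all genes up and 7.54% down.

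In *Usb1* knockout cells, 2 of the 8 genes rose in the first day, *Sox3* (1.37 ± 0.24, adjusted p = 5.93e-04) and *Sox4* (1.25 ± 0.16, 3.12e-05), and none fell, beside 4.07% and 2.87% of all genes. *Sox1*, at 0.93 ± 0.10 (adjusted p = 1.01e-05), was just under 2-fold, and *Sox11* was at 0.36 ± 0.21 (adjusted p = 0.245). By day 3, *Sox4*, *Nes* (3.57 ± 0.15, 5.87e-11), *Sox11* and *Sox3* (1.56 ± 0.24, 6.22e-05) had risen from day 0 and *Tubb3* and *Sox1* (-1.72 ± 0.10, 3.08e-09) had fallen, which is 4 up and 2 down beside 13.8% and 8.04% of all genes. From day 1 to day 3 the counts were again 4 and 2, with *Nes*, *Sox4* (3.05 ± 0.16, 9.74e-10), *Sox11* (2.64 ± 0.21, 1.02e-07) and *Ncam1* up and *Sox1* and *Tubb3* (-1.31 ± 0.08, 1.08e-08) down, beside 9.6% and 5.73% of all genes. The plot of both steps sets the genotypes next to each other.

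**Figure D2:**
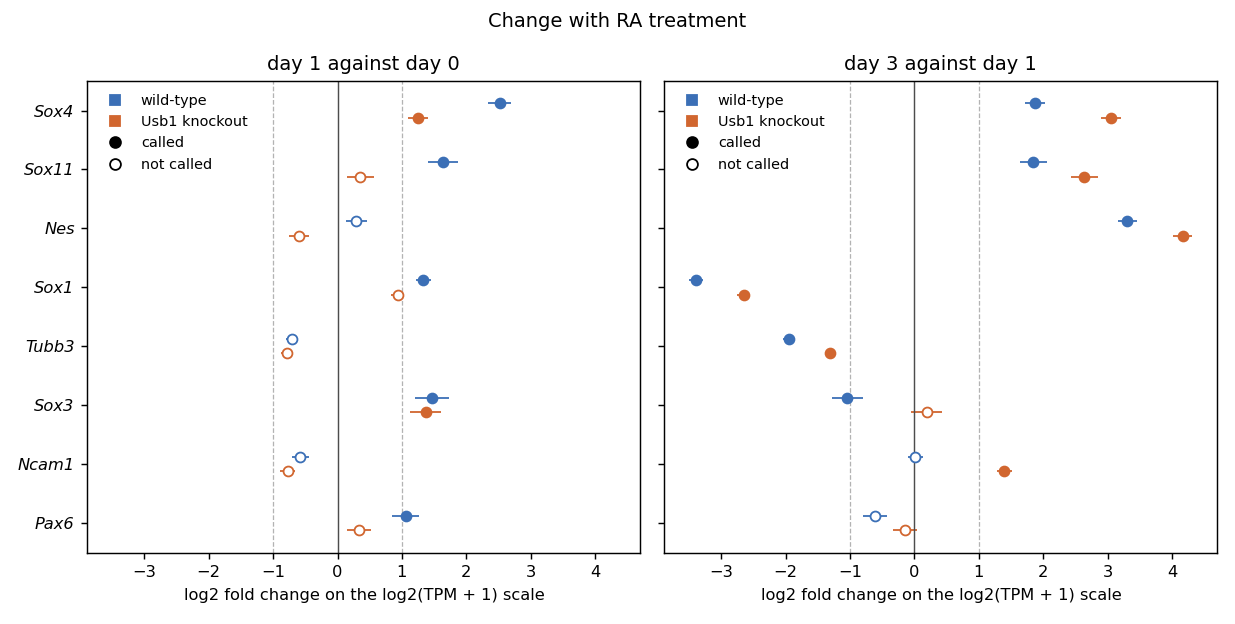
Log2 fold change on the log2(TPM + 1) scale (x axis) of the 8 tested genes (y axis) from day 0 to day 1 (left) and from day 1 to day 3 (right) in wild-type (blue) and *Usb1* knockout (orange) cells. Error bars are SE, filled points passed the test and dashed lines mark a 2-fold change; *Sox4* rises by 2.52 and 1.25 in the first step and by 1.87 and 3.05 in the second.

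At day 0, *Usb1* knockout cells differed from wild-type cells in 1 of the 8 genes. *Sox3* was lower (-2.04 ± 0.27, adjusted p = 3.46e-04), none was higher, and over all genes 1.45% were lower and 1.6% higher. The *Sox3* difference was -1.36 without wild-type replicate 1, and in a fit of the day 0 libraries alone it missed the threshold, with adjusted p from 4.72e-07 to 0.131 over its alternatives. *Ncam1* (-0.60 ± 0.13, adjusted p = 0.0104) and *Sox1* (0.45 ± 0.12, adjusted p = 0.0251) differed by less than 2-fold.

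At day 1 the knockout cells held less RNA of *Sox3* (-2.13 ± 0.24, adjusted p = 4.05e-05) and *Sox4* (-1.11 ± 0.16, adjusted p = 2.75e-04), so 2 of 8 genes were lower and none higher, beside 1.76% and 0.462% of all genes. *Sox11* (-0.96 ± 0.21, adjusted p = 0.00632), *Ncam1* (-0.80 ± 0.12, 4.18e-04) and *Nes* (-0.51 ± 0.15, 0.0318) were lower with an adjusted p under the threshold but by less than 2-fold, and *Pax6* was at -0.56 ± 0.18 (adjusted p = 0.0526). These 6 genes were each lower in all 3 knockout libraries than in any wild-type library, as were 30.4% of all genes tested, while *Sox1* and *Tubb3* overlapped. The median of all genes was -0.13 in this comparison. The call for *Sox4* held under 11 of 14 alternatives. It was under 2-fold after scaling to an equal median (-0.88), after quantile normalization (-0.96) and without knockout replicate 3 at day 1 (-0.998).

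At day 3 no gene of the 8 passed both limits, where 0.521% of all genes were higher and 0.773% lower in the knockout. Voom on the recovered reads called 1 (its share of all genes is not given), and limma's unadjusted p was under 0.05 for 5 of the 8, beside 19.1% of all genes. By adjusted p alone 4 genes differed, beside 7.52% of all genes: *Tubb3* (0.78 ± 0.08, adjusted p = 5.04e-05), *Sox1* (0.78 ± 0.10, 3.07e-04) and *Ncam1* (0.58 ± 0.12, 0.00742) were higher and *Sox3* (-0.90 ± 0.24, 0.0347) was lower. *Sox1*, which is at low TPM on this day, passed 2-fold with a pseudocount of 0.1 (1.08) and with voom on the recovered reads (1.12, adjusted p = 0.00515, in a range of 1.02e-04 to 0.0636 over its alternatives). *Sox4* (0.07 ± 0.16), *Sox11* (-0.17 ± 0.21) and *Nes* (0.35 ± 0.15, adjusted p = 0.216) did not pass, so the day 1 gap in *Sox4* was not detected at day 3. The plot of genotype differences shows the 3 days.

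**Figure D3:**
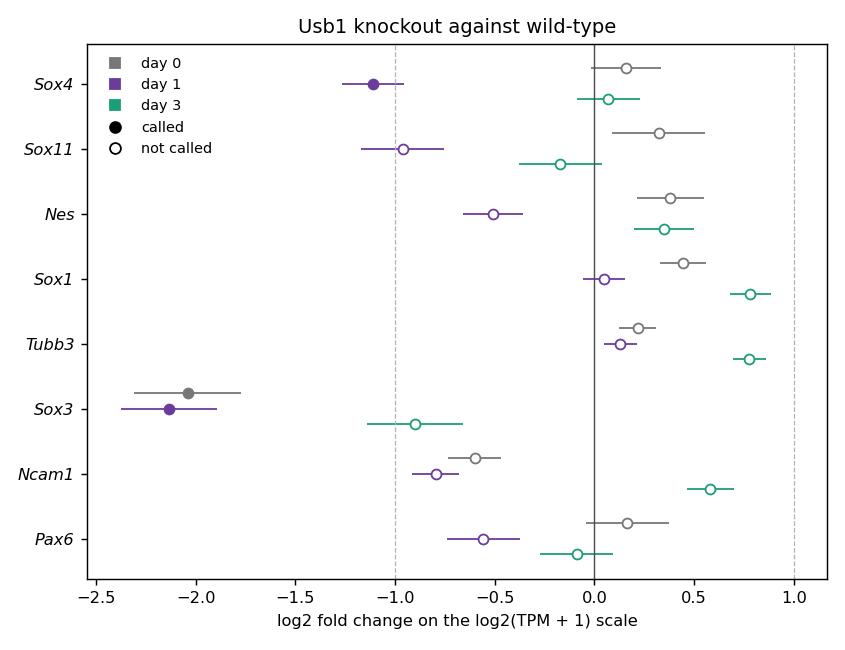
Log2 fold change of *Usb1* knockout against wild-type cells on the log2(TPM + 1) scale (x axis) for the 8 tested genes (y axis) at day 0 (grey), day 1 (purple) and day 3 (green). Error bars are SE, filled points passed the test and dashed lines mark a 2-fold change; only *Sox3* at day 0 and day 1 and *Sox4* at day 1 are filled.

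The difference between genotypes in the RA response was tested as an interaction. From day 0 to day 1 the responses of *Sox4* (-1.27 ± 0.24, adjusted p = 0.0148) and *Sox11* (-1.29 ± 0.31, adjusted p = 0.0499) were smaller in knockout cells, which is 2 of 8 genes lower and none higher, beside 0.672% and 0.187% of all genes. The median of all genes was -0.12. *Nes*, at -0.89 ± 0.23 (adjusted p = 0.0570), did not pass in limma and passed with voom on the recovered reads (-1.01, adjusted p = 0.0425). Its value was -0.48 without wild-type replicate 1 at day 0 and -1.30 without replicate 2. *Sox11* kept its call under 4 of 19 alternatives (adjusted p up to 0.134), and without wild-type replicate 1 at day 0 its value was -0.72 and that of *Sox4* was -1.17 (adjusted p = 0.0659, the highest of its 19 alternatives, the lowest being 0.00546). *Sox3* rose in both genotypes, and the difference between its responses was -0.09 ± 0.36 (adjusted p = 0.922), an error too wide to show that they were alike. The difference for *Sox3* was -0.78 without wild-type replicate 1 at day 0 and 0.59 without replicate 2, so its sign rested on which library was kept.

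From day 1 to day 3 the difference (knockout change minus wild-type change) was positive for *Ncam1* (1.38 ± 0.17, adjusted p = 2.10e-04), *Sox3* (1.23 ± 0.34, adjusted p = 0.0412) and *Sox4* (1.18 ± 0.22, adjusted p = 0.00507). That is 3 of 8 genes higher and none lower, beside 1.72% and 0.535% of all genes and a median of 0.13. *Ncam1* and *Sox4* rose more in knockout cells. *Sox3* instead fell in wild-type cells (-1.04 ± 0.24) and did not pass the test in knockout cells (0.19 ± 0.24, adjusted p = 0.574). For *Sox3* the call held under 5 of 20 alternatives, with adjusted p from 0.00119 to 0.154. *Sox4* was at 0.97 after scaling to an equal median and at 0.99 without knockout replicate 2 at day 3, the library with 229.7 TPM. *Tubb3* (0.65 ± 0.12, adjusted p = 0.00445), *Sox1* (0.73 ± 0.15, 0.00787) and *Nes* (0.86 ± 0.21, 0.0257) had an adjusted p under the threshold with less than 2-fold. Of these, *Tubb3* and *Sox1* fell in both genotypes, by less in knockout cells. From day 0 to day 3 only *Ncam1* differed (1.18 ± 0.18, adjusted p = 0.00161), 1 gene higher and none lower, beside 1.17% and 1.25% of all genes. For *Sox4* and *Nes* the differences over the whole course were -0.09 ± 0.24 and -0.03 ± 0.23.

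Other genes of the same pathway were read from lists of known genes. Among 28 further neural progenitor genes 20 were tested. In wild-type cells 6 rose and 7 fell from day 0 to day 3, with a median of -0.81 beside 0.10 for all genes, and in knockout cells 5 rose and 7 fell (median -0.02). Of all genes, 16.1% rose and 9.68% fell in wild-type cells, and 13.8% rose and 8.04% fell in knockout cells. *Irx3*, a factor of the caudal neural tube and of mesoderm, rose most in both (5.05 and 5.82), and *Gbx2*, a hindbrain and pluripotency-associated factor, fell most (-5.51 and -4.30). *Cdh2*, the N-cadherin gene, rose most from day 1 to day 3 (2.94 and 4.11). Between genotypes *Vim*, the vimentin gene, was lower in knockout cells at day 0 (-1.42 ± 0.05, adjusted p = 9.13e-10) and day 1 (-1.50 ± 0.05, 1.32e-10), and *Sox9*, a glial and progenitor factor, was higher at day 3 (1.09 ± 0.15, 4.81e-04). These were the only genes of the list that differed by this rule, 1 at each day. The shares of all genes were 1.45% and 1.76% lower at day 0 and day 1 and 0.521% higher at day 3.

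Among 26 neurogenic and neuronal genes 15 were tested, and 3 rose and 6 fell in wild-type cells from day 0 to day 3 against 5 and 4 in knockout cells. The shares of all genes were 16.1% and 9.68% in wild-type cells and 13.8% and 8.04% in knockout cells. *Isl1*, of motor neurons and of mesoderm, rose most in wild-type cells (2.60) and *Gap43*, a growth cone protein, in knockout cells (3.43). *Elavl3*, a neuronal RNA-binding protein, fell most in both (-2.32 and -2.29). At day 1 *Gap43* was lower in knockout cells (-1.17 ± 0.11, adjusted p = 1.06e-05), 1 of 2 genes of the list that were lower, beside 1.76% of all genes. At day 0 *Dpysl3* was lower (-1.30 ± 0.19, 6.67e-04), and at day 3 *Stmn2*, a microtubule regulator of neurons, was higher (1.28 ± 0.16, 1.89e-04) and *Nefl*, a neurofilament subunit, lower (-1.07 ± 0.15, 4.82e-04). The knockout change minus the wild-type change from day 1 to day 3 was positive for 8 of the 20 progenitor genes and negative for none (median difference 0.67), *Irx3* by the most (1.48 ± 0.27, 0.00372). It was positive for 4 of the 15 neuronal genes, *Gap43* by the most (1.93 ± 0.16, 1.10e-05), and negative for 1, *Nefl* (-1.38 ± 0.21, 0.00127). Of all genes 1.72% were positive and 0.535% negative, with a median of 0.13. A positive difference can also be a smaller fall, since *Gbx2* changed by -4.77 in wild-type and -3.51 in knockout cells.

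Markers of other cell types moved with the course of RA treatment. All 15 genes of the primitive and visceral endoderm list were tested, and 14 rose and 1 fell from day 0 to day 3 in wild-type cells (median 4.70), against 13 and 1 in knockout cells (median 3.75). Beside them, 16.1% of all genes rose and 9.68% fell in wild-type cells, and 13.8% and 8.04% in knockout cells. Their summed level was 733 to 747 TPM at day 0 and 4262 to 4799 TPM at day 3 in wild-type cells. In knockout cells it was 810 to 847 TPM and 1871 to 2435 TPM. Few genes made up most of these sums. At day 0 this was *Apoe*, with means of 498 (wild-type) and 678 TPM (knockout). At day 3 they were *Col4a1* (2374 and 1085 TPM) and *Lama1* (1121 and 372 TPM). In the wild-type group 1 of the 15 genes was at 0 in all libraries at day 0 and none at day 3. *Foxa2*, of endoderm, rose most (7.20 and 6.73) and *Apoe* fell (-1.10 and -1.41). Between genotypes 3, 8 and 9 of the 15 were lower in knockout cells at day 0, 1 and 3, beside 1.45%, 1.76% and 0.773% of all genes. *Cubn* (-1.55), *Sox7* (-2.38) and *Gata4* (-1.73) were the most lowered, and none was higher. This movement accompanied the lower *Sox3* at day 0 and the lower *Sox3* and *Sox4* at day 1, and its part in those results was not tested.

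Of 12 mesoderm genes tested (of 14 listed), 4 rose and 1 fell in wild-type cells and 6 rose and none fell in knockout cells from day 0 to day 3. The shares of all genes were 16.1% and 9.68% in wild-type cells and 13.8% and 8.04% in knockout cells. *Foxf1*, of lateral mesoderm, rose most (5.86 and 6.09), and at day 3 2 genes were higher in knockout cells, *Meox1* by the most (1.72 ± 0.25, adjusted p = 5.61e-04), beside 0.521% of all genes. At day 0 *Twist1* was higher in knockout cells (1.42 ± 0.21, 7.89e-04). The mesoderm sum was 308 to 364 TPM in wild-type and 373 to 433 TPM in knockout cells at day 3, of which *Tbx3*, a gene that is also in the pluripotency list, made up means of 223 and 217 TPM. Of 10 neural crest and surface ectoderm genes tested (of 12), 4 rose and 3 fell in each genotype from day 0 to day 3, beside the same shares of all genes. *Krt18*, a keratin of simple epithelia, rose most (7.53 and 7.02), to mean levels of 2215 and 2139 TPM, and *Foxd3*, of neural crest and pluripotent cells, fell most (-5.35 and -4.76). *Tfap2c*, of trophoblast, crest and ectoderm, was higher in knockout cells at day 3 (1.76 ± 0.11, 4.08e-07), and *Grhl2*, an epithelial factor, at day 0 (1.25 ± 0.27, 0.0104).

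Of the 10 pluripotency markers, all tested, 9 fell and none rose from day 0 to day 3 in each genotype (median -4.23 in wild-type and -3.50 in knockout cells). Of all genes, 9.68% fell in wild-type and 8.04% in knockout cells. *Esrrb* fell most (-6.62 and -5.03). Pluripotency RNA was higher in knockout cells at day 1 for *Esrrb* (1.09 ± 0.09, adjusted p = 3.11e-06), and at day 3 for 3 genes, *Nanog* by the most (1.90 ± 0.07, 4.27e-10). The shares of all genes that were higher were 0.462% at day 1 and 0.521% at day 3. The summed level of the list at day 3 was 1203 to 1390 TPM in wild-type and 1498 to 1833 TPM in knockout cells. Most of this sum was *Dppa5a* (means of 810 and 1047 TPM) and *Tbx3* (223 and 217 TPM). The means of *Klf4* (58.0 and 32.5 TPM) and *Tbx3* were lower in knockout cells, and those of the other genes of the list were higher. These values stand beside the higher *Sox1* and *Tubb3* of knockout cells at day 3, and their part in that result was not tested.

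**Figure D4:**
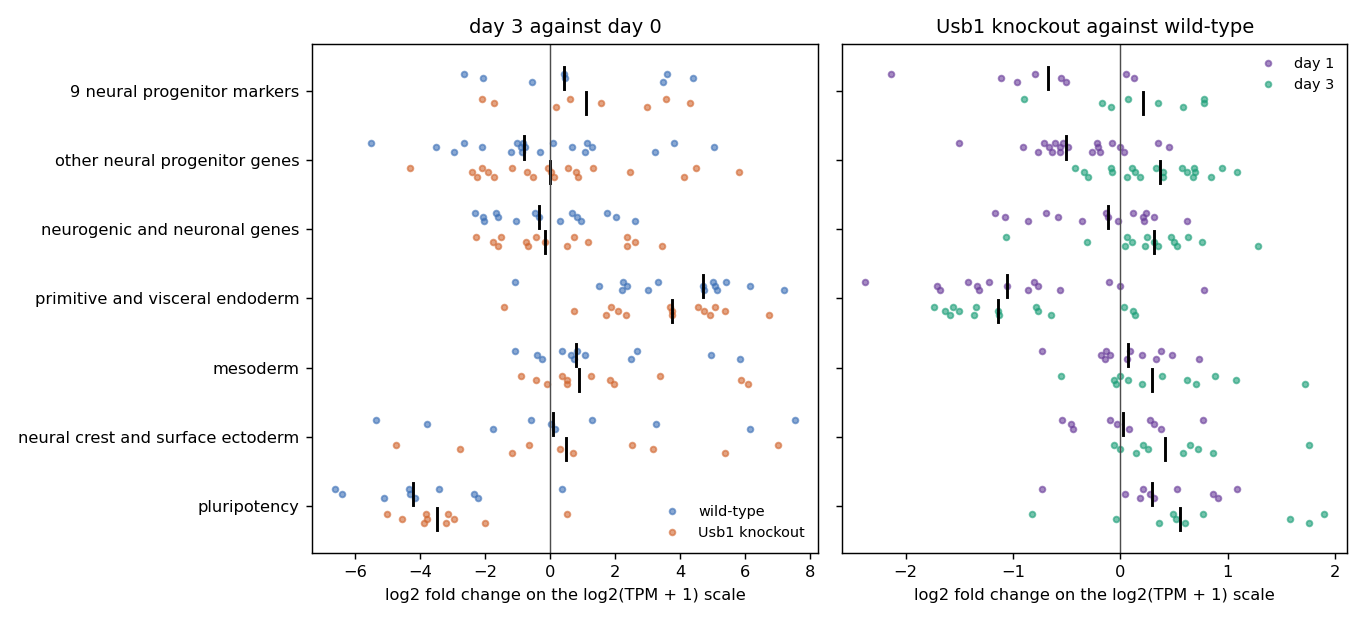
Log2 fold change on the log2(TPM + 1) scale (x axis) of each tested gene (points) of the 9 markers and of 6 lists (rows), from day 0 to day 3 in wild-type (blue) and *Usb1* knockout (orange) cells (left), and between genotypes at day 1 (purple) and day 3 (green) (right). Black bars are medians, which for endoderm are 4.70 and 3.75 on the left, and for the 9 markers, of which 8 are drawn, are 0.43 and 1.09.

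The genes with the nearest profile over the 6 group means of log2(TPM + 1), each centred on its own mean, were taken from 11027 genes that range by at least 1 on that scale, and the root mean square difference is given as a description. For *Sox4* they were *Meis1* (0.19) and *2700033N17Rik* (0.19), for *Sox11* *Zbtb42* (0.18) and *B2m* (0.18), and for *Nes* *Rnase4* (0.20) and *Gbp2* (0.21). *Meis1* went from 0.268 TPM at day 0 to 25.0 TPM at day 3 in wild-type cells and had mean levels at day 1 of 3.92 (wild-type) and 1.82 TPM (knockout). For *Sox1* they were *1700029P11Rik* (0.19) and *Gm11627* (0.24), and for *Tubb3* *Ung* (0.13) and *Sult6b1* (0.14). The nearest genes of *Sox3* were farther away, *Trerf1* (0.36) and *Gm12746* (0.41). Their lower knockout means at day 0 and day 1 are part of the profile by which they were chosen. *Ncam1* was nearest to *Gm43059* (0.06) and *Gm12774* (0.14). For the genes of low level the measure is small by construction, and it gave *Ank2* (0.06) and *Klk15* (0.07) for *Pax6* and *Gm43858* (0.07) and *Churc1* (0.08) for *Zic1*. Among the 7 genes other than *Pax6* and *Zic1*, the closest pair was *Sox4* and *Sox11* (0.49), followed by *Nes* and *Sox11* (0.67) and by *Sox1* and *Tubb3* (0.80).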

How the data were processed

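RNA of 17 libraries of R1 mouse embryonic stem cells was measured by the study on an Illumina NovaSeq. The authors deposited TPM, which they calculated from gene length and read number. The submitters' processing notes name HISAT2 2.1.0, StringTie 1.3.6 and GRCm38.p6. The reads behind each value were recovered from TPM and GENCODE M21 exon lengths, and 95.9% to 96.7% of values above 0 came out whole (within 0.01). The deposited values are not counts, so limma 3.58.1 (R 4.3.3) with a variance trend was fitted to log2(TPM + 1) over the means of the 6 groups, for the 21871 genes that reached 1 TPM in 2 or more libraries. The scale understates changes of genes at low TPM. The Benjamini-Hochberg adjustment was made per comparison over all genes tested. P-values measure the spread between these libraries.

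The 9 genes, the 6 other lists and the tests were chosen with earlier results of these data known. The genes named are the 9, *Usb1* as a check, from each list the called genes with the largest rise and fall in each comparison described, and the 2 genes nearest in profile to each of the 9. Some genes were also named to describe the sum of a list. Promoters are from RefSeq. Alternatives were a pseudocount of 0.1, no filter, a filter at 5 TPM, adjusted p alone, quantile normalization, equal medians, the libraries of the comparison alone, a replicate block, voom on the recovered reads, and leaving out each library. Tables and figures used Python 3.11.15, pandas 2.3.3, numpy 2.4.6 and matplotlib 3.10.9.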

Additional observations from a re-analysis of the deposited data

Results flagged for a closer look

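The limma test of the difference in RA response between wild-type and *Usb1* knockout cells called *Sox11*, *Sox4*, *Sox3* and *Ncam1*, with 6 values over 3 comparisons. From day 0 to day 1 the log2 difference (knockout response minus wild-type response) was -1.29 ± 0.31 (SE) for *Sox11* (adjusted p = 0.0499) and -1.27 ± 0.24 for *Sox4* (adjusted p = 0.0148). Over all genes tested, 0.672% had a negative and 0.187% a positive difference by this rule. Without wild-type replicate 1 at day 0 the values were -0.72 and -1.17, with adjusted p of 0.119 and 0.0659. The call held under 4 of 19 alternatives for *Sox11* and under 18 of 19 for *Sox4*. From day 1 to day 3 the difference was 1.18 ± 0.22 for *Sox4* (adjusted p = 0.00507), 1.38 ± 0.17 for *Ncam1* (adjusted p = 2.10e-04) and 1.23 ± 0.34 for *Sox3* (adjusted p = 0.0412), beside 1.72% of all genes with a positive and 0.535% with a negative difference. From day 0 to day 3 it was 1.18 ± 0.18 for *Ncam1* (adjusted p = 0.00161), beside 1.17% and 1.25% of all genes. The 3 comparisons share libraries, so the values are not independent of each other. The call for *Ncam1* held under all 19 and all 20 alternatives in its comparisons. From day 1 to day 3 the call for *Sox4* held under 18 of 20 alternatives. That for *Sox3* held under only 5 of 20, with adjusted p up to 0.154.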

How the results depend on the processing

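Of 39 calls over the 8 tested genes and 12 comparisons, 29 held under every alternative run, 10 were lost under at least 1, and none changed direction. The counts of genes called moved by over 1.5 times as follows, and the cause was not tested. With adjusted p alone, without the fold limit, 3, 5 and 4 genes differed between genotypes at day 0, 1 and 3 (in place of 1, 2 and 0), 6 changed from day 0 to day 1 in knockout cells (in place of 2), and the responses of 2 genes to day 3 and of 6 genes from day 1 to day 3 differed (in place of 1 and 3), beside 11.9%, 17.3%, 7.52%, 27.7%, 6.15% and 7.61% of all genes. The counts that follow are given without the share of all genes under the same setting. A change in them thus cannot be read as particular to these genes. With the libraries of the comparison alone, 0 genes differed at day 0, 3 changed from day 0 to day 1 in wild-type cells (in place of 5), and 1 response to day 1 differed (in place of 2). Quantile normalization and equal medians each left 1 gene between genotypes at day 1 and 1 in the response to day 1, as did a pseudocount of 0.1 and no filter for that response, and equal medians left 1 from day 1 to day 3. At day 3, 1 gene differed between genotypes with a pseudocount of 0.1 and 1 with voom on recovered reads. Leaving out 1 library gave 1 to 3 genes between genotypes at day 1, 0 to 3 in the response to day 1 (0 without wild-type replicate 1 and 3 without wild-type replicate 2 at day 0), 1 to 3 in the response to day 3 (3 without wild-type replicate 2 at day 0), and 1 to 3 from day 1 to day 3 (1 without knockout replicate 2 at day 3). Where wild-type cells at day 0 were left with 1 library, it was assumed to vary like the other groups.

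The replicate block moved no count of genes called: the number of genes that differed at day 0, 1 and 3 was 1, 2 and 0 with it. The labels give the same numbers in each group and do not state whether the libraries were paired. In deviations from the group means, 1 of 40 same-numbered pairs correlated over 0.1 (range -0.13 to 0.12), and 6 of 17 libraries correlated best with their own number. So pairing was not detected, but groups this small cannot show that it was absent. Depth limits *Zic1*, at 0 to 33 reads, and *Pax6*, at 17 to 116.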
